A study of Drosophila melanogaster with 2 samples.

Results

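Trithorax group and Brahma complex genes encode a family of chromatin regulators, and this is an account of where the corepressor Groucho was recovered in and around 8 of them in Drosophila melanogaster embryos. The genes are brm, osa, mor, kis, trx, ash1, ash2 and Trl, out of 13945 protein-coding genes. They were taken by name for their known function and not by any measured value, though with earlier results of these data known. Every listed summit inside one of these genes or within 5 kb of it was taken. The rule gave 26 of the 4492 summits in the list that the authors selected with the irreproducible discovery rate (IDR), a measure of how alike replicates rank their regions. It gave 96 of the 30000 summits in the authors' list from the pooled replicates. That list is labelled as peaks and background, the input for IDR. A summit in it that is not in the IDR list may therefore be background.

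The study mapped Groucho by ChIP-seq, in which DNA bound by a protein is recovered with an antibody and sequenced. It held 1 group of 2 biological replicates, numbered 1 and 3. Both were whole embryos of mixed sex, 0 to 24 h old, of the transgenic strain gro-GFP, which makes Groucho with GFP at its C-terminus, and GFP was the target of the antibody. Whole embryos of that age range mix many stages and cell types, and no precipitation from embryos without the tag was analysed here, so a site cannot be assigned to a cell type or set against a background of the same kind.

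Trithorax group proteins keep developmental genes, the Hox genes among them, in an active state, and they were found as opponents of Polycomb group repressors. Some of them are subunits of the Brahma complex, the fly SWI/SNF machine that moves nucleosomes, and others methylate histones or bind DNA. Groucho has no DNA-binding domain of its own: repressors such as Hairy and the E(spl) proteins bring it to their targets, where it is known to lower transcription with the help of histone deacetylases.

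Groucho summits of the IDR list fell within 1 kb of a transcription start site (TSS) of 6 of the 8 genes, brm, osa, mor, kis, trx and Trl. That is 75% (Wilson 95% interval 40.9 to 92.9%), beside 25.9% of all protein-coding genes and 37.1% of the 5004 that span at least the 3252 bp of the shortest of the 8. In the longer pooled list it was the same 6 genes, beside 57.3% of all protein-coding genes. All 8 had an IDR summit inside them or in the 5 kb on either side, as did 49.4% of protein-coding genes, but at ash1 and ash2 it lay beside a neighbouring gene's TSS. The strongest summits between the ends of the genes were in introns: signal 618 in osa, 531 in Trl and 274 in trx, ranked 42, 57 and 289 in the IDR list. That of Trl is in an intron of the 1 transcript from the 5′-most TSS. It lies upstream of the TSS that 7 of the 10 transcripts use. The sequence under these summits is printed here from the RefSeq Release 6 (dm6) genome, plus strand, 5′ to 3′, in lower case. Capitals mark matches to any of the 18 short motifs whose letters are given further on. The stretches are chr3R:17704317-17704517 in intron 4 of osa, chr3L:14759425-14759625 in intron 2 of Trl, chr3R:14283842-14284042 in intron 1 of trx and chr3L:19590525-19590716 just past the end of ash1.
osa intron 4: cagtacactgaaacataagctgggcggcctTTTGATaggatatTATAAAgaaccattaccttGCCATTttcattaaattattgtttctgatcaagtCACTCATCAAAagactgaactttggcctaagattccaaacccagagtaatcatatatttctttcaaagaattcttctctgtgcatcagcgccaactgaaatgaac
Trl intron 2: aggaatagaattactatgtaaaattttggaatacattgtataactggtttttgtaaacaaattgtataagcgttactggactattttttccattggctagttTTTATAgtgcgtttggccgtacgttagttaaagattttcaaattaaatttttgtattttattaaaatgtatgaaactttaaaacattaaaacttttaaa
trx intron 1: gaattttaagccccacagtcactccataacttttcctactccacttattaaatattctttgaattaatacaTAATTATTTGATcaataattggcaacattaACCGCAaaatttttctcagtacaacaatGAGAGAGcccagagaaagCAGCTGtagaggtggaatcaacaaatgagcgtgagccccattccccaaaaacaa
ash1 3′ flank: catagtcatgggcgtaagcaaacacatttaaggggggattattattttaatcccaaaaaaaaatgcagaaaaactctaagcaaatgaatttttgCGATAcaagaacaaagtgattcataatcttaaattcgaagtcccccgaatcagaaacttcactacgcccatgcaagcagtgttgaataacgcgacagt

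Signal is the authors' value for a region, on a scale that is not stated, and it was used to rank and describe. In the IDR list it ran from 80.6 to 1892. Pooled and replicate signals are not on 1 scale, so each replicate's own signal is given as well, with their mean ± SD (n = 2). Depth is unknown, since the files list regions and hold no read counts. A replicate value is that of its strongest region overlapping the pooled one. The lists hold only regions above a minimum, 21.4 in the pooled list, 12.3 in replicate 1 and 12.1 in replicate 3, so a gene without a region is one not listed. The IDR list was exactly the 4492 pooled regions of highest signal and was made from both replicates, so presence in both is no separate check of it. Of the summits at these genes, the weakest inside the IDR list had a pooled signal of 87.6 (intron 2 of trx) and the strongest outside it 79.7 (Hel89B, beside mor).

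**Figure D1:**
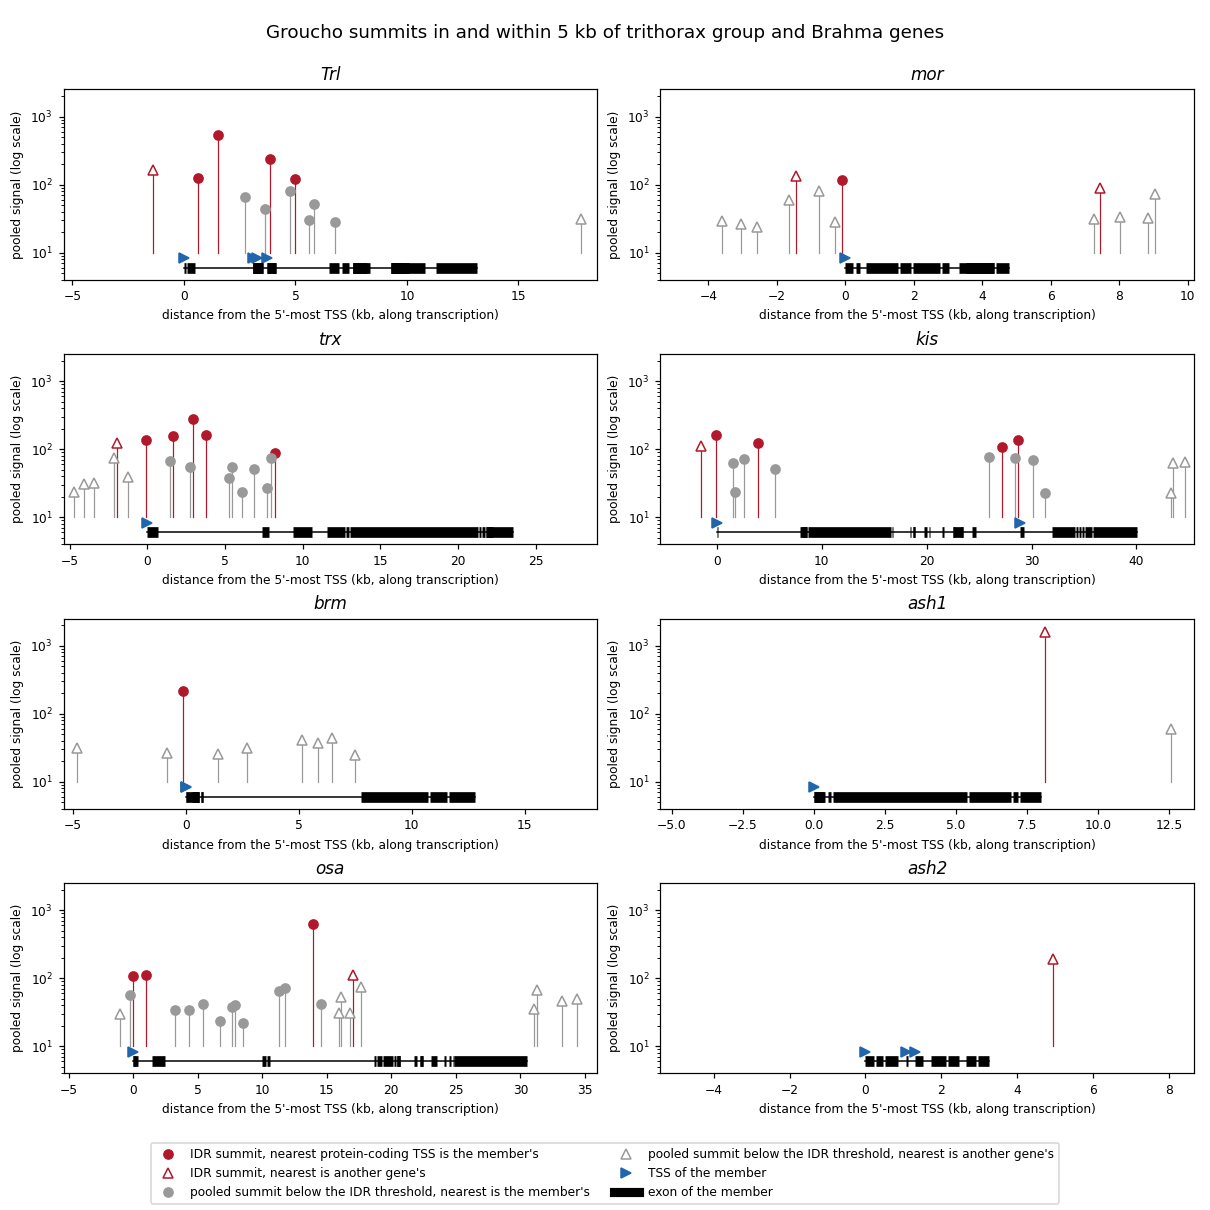
Pooled signal (log scale) of each of the 96 summits against distance from the 5′-most TSS in kb, 1 panel for each gene, read in the direction of transcription. Red marks the 26 IDR summits and grey the 70 below the IDR threshold; filled circles have the gene's own TSS as the nearest protein-coding TSS, open triangles another gene's. The red circles of osa (618), Trl (531) and trx (274) stand inside the gene, and the summits of ash1 and ash2 are all triangles past the 3′ end.

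In the Brahma complex, brm encodes the ATPase, the motor subunit. It lies on 3L from 15970082 to 15982869, minus strand, and had 1 IDR summit, at 15982966, 97 bp upstream of the TSS that 5 of its 6 transcripts use. The pooled signal was 217 (rank 500). Replicate 1 gave 106 and replicate 3 gave 113, a mean of 109 ± 4.68, so the promoter of brm had one of the closest pairs of values among the 26 summits. Intron 3 of brm (6873 bp) held 6 further pooled summits, of signal 24.6 to 44.0, all below the IDR threshold. None of the 6 had brm as the gene of the nearest TSS: CG17026, CG17027 and CG17029 lie within that intron and were nearer.

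mor encodes Moira, a core subunit on which the complex is assembled. The gene lies on 3R from 15968134 to 15972913, minus strand, and is the only one of the 6 with a promoter site that held no summit within its transcribed body. Its promoter summit, at 15973017 and 104 bp upstream of the TSS, had a pooled signal of 117 (rank 2208). Replicate 1 gave 35.3 and replicate 3 gave 82.4, a mean of 58.8 ± 33.3, so the replicates lay 2.34-fold apart, and in replicate 1 that region ranked 6297, outside the highest 4492. The TSS of Hel89B, which runs the other way, is 385 bp from that of mor. Within Hel89B, in an intron at 15974355, was the stronger summit of this stretch, with a pooled signal of 135, 60.3 in replicate 1 and 84.1 in replicate 3 (mean 72.2 ± 16.8). The last IDR summit within 5 kb of mor, at 15965461, was 15 bp from the TSS of Rbf2, with a pooled signal of 88.6, 39.8 in replicate 1 and 54.0 in replicate 3.

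osa encodes the ARID-domain subunit found in the BAP form of the Brahma complex and not in the PBAP form. The gene lies on 3R from 17687818 to 17718350, minus strand, with 1 TSS, and had 4 IDR and 24 pooled summits. The strongest, at 17704417, lay 13933 bp downstream of the TSS in intron 4 (8067 bp) and had a pooled signal of 618. Replicate 1 gave 228 and replicate 3 gave 387, a mean of 307 ± 112, and each of these exceeded every other value of its replicate at osa. That summit also falls in an exon of a non-coding RNA gene, 722 bp from the TSS of lncRNA:CR46035, so the annotation alone does not tie it to osa. A second summit in the same intron, at 17701351 and 610 bp from the TSS of lncRNA:CR46036, had a pooled signal of 113, with 48.0 in replicate 1 and 63.1 in replicate 3. The nearest protein-coding TSS to that second summit is that of CG31249, 14280 bp away.

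The promoter of osa was modest beside its intron. The summit 35 bp upstream of the TSS, at 17718385, had a pooled signal of 108 (rank 2610), with 37.3 in replicate 1 and 70.01 in replicate 3 (mean 53.6 ± 23.1). In replicate 1 that region ranked 5691, outside the highest 4492. Within intron 1 (1021 bp), 1002 bp into the gene at 17717348, a summit of pooled signal 111 gave 61.1 in replicate 1 and 51.8 in replicate 3 (mean 56.4 ± 6.57). Of the 20 summits of osa below the IDR threshold, with signals from 22.1 to 74.3, 14 were in introns 2 and 4.

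kis encodes Kismet, a CHD-family remodeller that is not part of the Brahma complex. The gene lies on 2L from 210735 to 250823, minus strand, and has a distal TSS used by 5 transcripts and an internal one, at 221962, used by 1. Both had an IDR summit. At the distal TSS, 79 bp upstream (250902), the pooled signal was 160 (rank 1053), with 88.7 in replicate 1 and 75.3 in replicate 3 (mean 82.0 ± 9.45). At the internal TSS, 195 bp upstream (222157), it was 138, with 69.8 in replicate 1 and 62.4 in replicate 3 (mean 66.1 ± 5.23). The distal site was the higher in both replicates, and at both sites replicate 3 gave a little less than replicate 1, 0.849 and 0.894 times its value.

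The other summits of kis lay in introns and at a neighbour. In intron 1 (8012 bp), 3878 bp downstream of the distal TSS at 246945, the pooled signal was 123, with 75.5 in replicate 1 and 45.3 in replicate 3 (mean 60.4 ± 21.4). In intron 13 (7230 bp), at 223635 and 116 bp from the TSS of lncRNA:CR44222, it was 107, with 36.8 in replicate 1 and 69.0 in replicate 3 (mean 52.9 ± 22.8). At the TSS of Rpp30, 1580 bp upstream of kis, it was 110, with 70.4 in replicate 1 and 40.1 in replicate 3 (mean 55.3 ± 21.4). Among the 5 IDR summits of kis these 3 had the widest replicate gaps, and not in the same direction: the intron 13 site was higher in replicate 3 and the others in replicate 1.

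Among the genes for histone methylation, trx encodes the founding member of the group, a methyltransferase for lysine 4 of histone H3. It lies on 3R from 14263358 to 14286903, minus strand, with 1 TSS, and had the most IDR summits of the 8 genes, 6. Of the 1343 protein-coding genes spanning 0.5 to 2 times its length, 3.65% had at least as many. Counted likewise for each gene's own number and length, that share was 9.77% for kis, 11.7% for mor and 16.0% for osa. It was 53.6% for ash2, 58.3% for ash1 and 59.9% for brm. The promoter summit, at 14286972 and 69 bp upstream, had a pooled signal of 136 (rank 1569), with 75.7 in replicate 1 and 64.4 in replicate 3 (mean 70.1 ± 8.03). Intron 1 (6667 bp) held 3 IDR summits, 1645, 2961 and 3758 bp downstream of the TSS. The middle one, at 14283942, was the strongest of the gene, with a pooled signal of 274, 100 in replicate 1 and 183 in replicate 3 (mean 142 ± 58.8).

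The flanking sites in that intron were weaker and much alike. The one nearest to the TSS, at 14285258, had a pooled signal of 155, with 66.6 in replicate 1 and 88.8 in replicate 3 (mean 77.7 ± 15.7). The farthest, at 14283145, had 160, with 78.7 in replicate 1 and 77.4 in replicate 3 (mean 78.1 ± 0.958), the closest pair of replicate values among the 26 summits. The farthest site was above the trx promoter in both replicates, and the nearest one was below it in replicate 1 and above it in replicate 3. Intron 2 (1550 bp) held the weakest IDR summit, 8217 bp from the TSS, with a pooled signal of 87.6, 43.6 in replicate 1 and 46.8 in replicate 3. The sixth summit, 1927 bp upstream of trx, was 241 bp from the TSS of red and had a pooled signal of 125, with 54.7 in replicate 1 and 87.3 in replicate 3.

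ash1 encodes a SET-domain methyltransferase for lysine 36 of histone H3. The gene lies on 3L from 19590773 to 19598755, minus strand. The summit counted for it was the second highest of the whole IDR list, with a pooled signal of 1604, 590 in replicate 1 and 1016 in replicate 3 (mean 803 ± 301). By position it is not an ash1 promoter site: the summit, at 19590616, was 157 bp past the 3′ end of ash1, 8139 bp from the ash1 TSS and 92 bp from the TSS of CG14100. The region, from 19590425 to 19590807, covers the last 35 bp of ash1. No pooled summit lay within 7586 bp of the ash1 TSS. Replicate 1 alone listed a region there, 34 bp from the TSS, with a signal of 20.7 (rank 15219).

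ash2 encodes a subunit of the COMPASS complexes that methylate lysine 4 of histone H3. The gene lies on 3R from 24650125 to 24653376, plus strand, with 3 TSSs, and no pooled summit lay in it. Its 1 summit within 5 kb, at 24655078, was 1702 bp past the 3′ end and 82 bp from the TSS of CG6695. That summit had a pooled signal of 195 (rank 653), with 105 in replicate 1 and 87.6 in replicate 3 (mean 96.3 ± 12.4). The nearest region of either replicate to an ash2 TSS was in replicate 3, 1172 bp away, with a signal of 13.0 (rank 27417), near the minimum of that list.

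Trl encodes the GAGA factor, which binds GA-rich DNA and keeps promoters open. The gene lies on 3L from 14747929 to 14761049, minus strand, and has 4 TSSs: the 5′-most one, at 14761049, is used by 1 transcript, and that at 14757962 by 7 of the 10. Trl had 5 IDR summits, and 3.84% of the 1979 protein-coding genes of 0.5 to 2 times its length had as many. The strongest, at 14759525, lay in intron 2 of the transcript from the 5′-most TSS, Trl-RF (3233 bp), 1524 bp downstream of its TSS. Its pooled signal was 531, with 171 in replicate 1 and 362 in replicate 3 (mean 266 ± 135). In the same intron, 643 bp from that TSS (14760406), a summit of 124 gave 43.9 in replicate 1 and 80.1 in replicate 3 (mean 62.0 ± 25.6).

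Downstream, the summit at 14757190 lay 146 bp into the transcript that starts at 14757336, in annotated 5′ UTR, and was the highest promoter site of the 8 genes. Its pooled signal was 238 (rank 397), with 72.1 in replicate 1 and 180 in replicate 3 (mean 126 ± 76.6). At the TSS used by 7 transcripts the nearest IDR summit was this one, 772 bp away, and the nearest pooled summit, at 334 bp, had a signal of 65.9. Farther in, the next intron (2353 bp; intron 2 of Trl-RB) held a summit at 14756052 of pooled signal 119, with 28.2 in replicate 1 and 91.9 in replicate 3 (mean 60.0 ± 45.1). It ranked 9239 in replicate 1 and had the widest replicate gap of the 26 as a ratio, 3.26-fold, though not by SD. An overlapping pooled region below the IDR threshold, with its summit at 14756285, took the same replicate 3 value but 38.1 in replicate 1, 2.41-fold apart. The fifth summit, 1382 bp upstream of Trl, was 403 bp from the TSS of Mgat4a, with a pooled signal of 163, 72.0 in replicate 1 and 94.3 in replicate 3. All 5 summits of Trl were higher in replicate 3, by 1.31-fold to 3.26-fold.

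The order of the promoter signals was Trl (238), brm (217), kis (160), trx (136), mor (117) and osa (108). With the replicates set apart, only part of that order held. In replicate 1 the order was brm (106), kis (88.7), trx (75.7), Trl (72.1), osa (37.3) and mor (35.3), and in replicate 3 Trl (180), brm (113), mor (82.4), kis (75.3), osa (70.01) and trx (64.4). brm was above kis, trx, mor and osa in both replicates, and the place of Trl turned with the replicate. The protein-coding genes whose promoter signals were most like those of Trl, by distance in log2 signal of both replicates over 3587 genes, were CG42507, Alp12 and CG13085. CG42507 counts the same summit as Trl and was therefore at distance 0. Alp12 and CG13085 share a summit of pooled signal 246, with 73.4 in replicate 1 and 179 in replicate 3, at a distance of 0.03.

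Introns outranked promoters in 3 of the 4 genes that had an IDR summit at both. Comparing a gene's strongest intron summit, over 1 kb from its TSSs, with its strongest promoter summit was chosen after the values were seen. The intron signal was 5.72 times the promoter signal in osa, 2.24 times in Trl and 2.01 times in trx, and in kis it was 0.769 times. The Trl site is in an intron only of the 1 transcript from the 5′-most TSS. For the 7 transcripts that start at 14757962 it lies upstream of the TSS. In osa, Trl and trx the intron site was the higher in replicate 1 and in replicate 3, and in kis the lower in both. Over the 444 protein-coding genes with both kinds of summit the intron was the higher in 45.7%, with length and number of summits not matched. The strongest was taken from 4 intron and 1 promoter IDR summits in trx, 3 and 1 in osa, and 2 and 2 in Trl and kis. In brm the intron summits stayed below the IDR threshold, and mor, ash1 and ash2 had none.

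**Figure D2:**
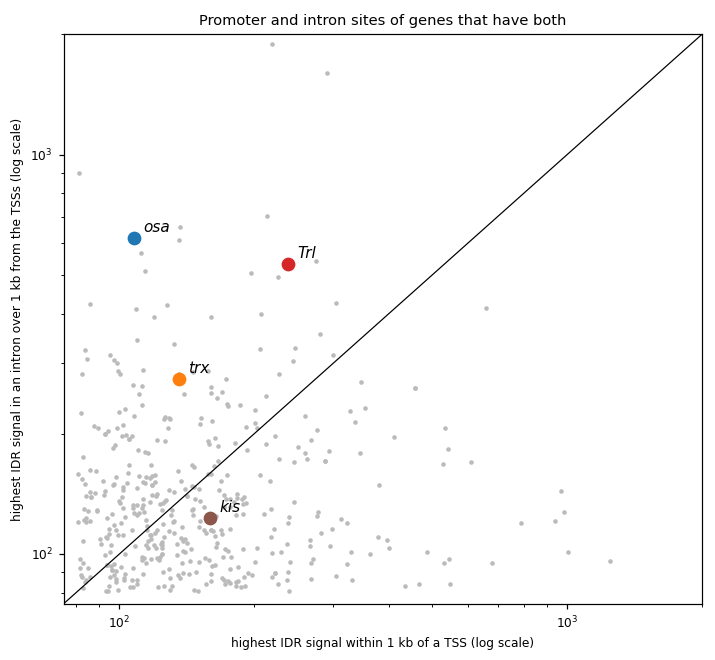
Highest IDR signal in an intron over 1 kb from a gene's TSSs against its highest IDR signal within 1 kb of a TSS, both on log scales, for the 444 protein-coding genes that have both; grey points are the other genes and the line marks equal signals. osa (618 against 108), Trl (531 against 238) and trx (274 against 136) lie above the line and kis (123 against 160) below it.

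By place, 14 of the 26 IDR summits (53.8%, Wilson 95% interval 35.5 to 71.2%) were within 500 bp of the TSS of any gene, against 62.6% of all IDR summits. In introns were 10 (38.5%, 22.4 to 57.5%), against 27.1%, and the 2 in exons of non-coding RNA genes were those in intron 4 of osa. The intervals cover counting error only, and both contain the share over all IDR summits. For 18 of the 26 no other protein-coding gene had a nearer TSS, and 8 summits lay within 1 kb of it. By contrast, 11 lay in an intron of the gene over 1 kb from its TSSs: 4 in trx, 3 in osa, and 2 each in Trl and kis. Such a summit was thus found in 4 of the 8 genes, against 4.85% of all protein-coding genes and 13.4% of those at least as long as the shortest of the 8. The 4 are the longest of the 8, and length moves with this count: of the 5 genes that span at least the 12788 bp of brm, 4 had one, against 29.5% of the 1577 protein-coding genes of that length. The median pooled signal of the 26 was 136, against 116 over all IDR summits, and 19 were in the upper 2246 of that list. Of the 96 pooled summits 46.9% (Wilson 95% interval 37.2 to 56.8%) were within 500 bp of the TSS of any gene, against 34.5% of all pooled summits. The rule takes only summits in a gene or within 5 kb of it, and the whole list has no such limit. Of the 96, 27.1% were IDR summits, against 15.0% of the whole list. Of the 70 others, 12 were in regions that overlap an IDR region of the same gene, and 11 of these take the same values in both replicates as that IDR region.

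Most of the IDR sites were higher in replicate 3. Of the 26 IDR summits 18 (69.2%) were higher in replicate 3, against 64.3% of the 4473 IDR peaks matched in both replicates. The median ratio of replicate 3 to replicate 1 was 1.35, with a range from 0.570 to 3.26, against a median of 1.17 over all matched IDR peaks. In Trl and mor every summit was higher in replicate 3, as was the 1 counted for brm and the 1 counted for ash1. In kis 4 of 5 were higher in replicate 1, as was the 1 counted for ash2. Of the 26, 20 (76.9%) were among the highest 4492 regions of each replicate, against 69.0% of all IDR peaks. With 2 replicates of 1 group no test of these differences was possible, and what set the replicates apart was not tested.

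**Figure D3:**
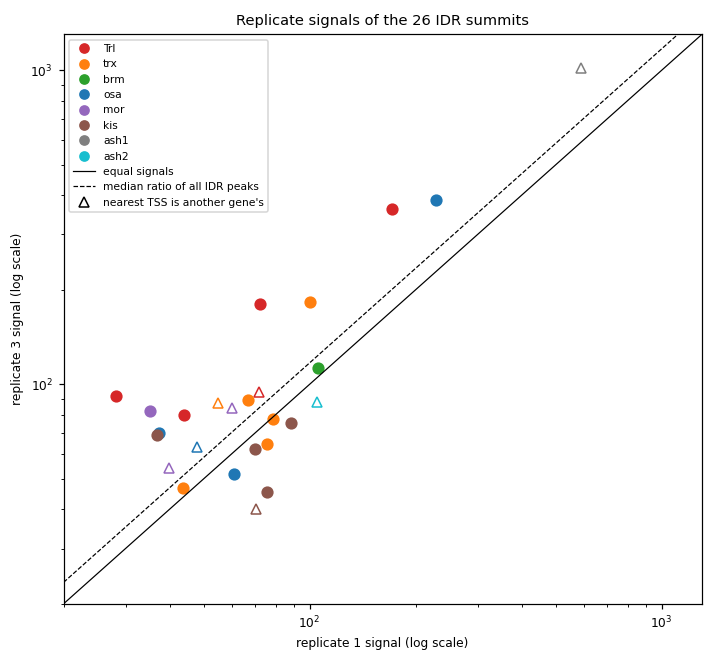
Signal in replicate 3 against signal in replicate 1 for the 26 IDR summits, both on log scales, coloured by gene; triangles have another gene's TSS as the nearest protein-coding TSS. The solid line marks equal signals and the dashed line the median ratio of 1.17 over all matched IDR peaks; all 5 points of Trl lie above the solid line and 4 of the 5 of kis below it.

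Short sequences known to be bound by factors that act at such sites were searched on both strands in the 201 bp around each summit, and overlapping matches were counted. For the GAGA factor the letters searched were GAGAG, with GAGAGAG as the longer form. For promoter elements they were TATCGATA for the DNA replication-related element (DRE), CGATA for the boundary factor BEAF, GGTCACAC for core promoter motif 1 and TATAAA for the TATA box. For repressors they were CACGTG for Hairy and the E(spl) proteins with CACGTGC as its longer form, CAGGTG for Snail, and GGCGCC for Brinker. For other factors they were GCCATT for the Polycomb group protein Pho, TGAGTG for Zeste, CAGGTA for Zelda, TGGGAA for Su(H), ACCGCA for Runt, TTTGAT for TCF, TAATTA for homeodomain proteins and CAGCTG as a further E-box. CGATA lies within the DRE, and each short form within its longer form. A match describes the letters and is not a measured binding site.

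GAGAGAG was present at 4 of the 26 summits (15.4%), against 6.23% of all IDR and 4.89% of all pooled windows. They were at trx (14283942 and 14285258), osa (17717348) and kis (222157), and these 4 were also the only ones with GAGAG, which 28.3% of IDR and 25.3% of pooled windows hold. The window at 14285258 in trx held 8 overlapping matches, and none of the 5 windows of Trl, whose product is known to bind these letters, held GAGAG. The stretches are shown for the placing of the GA runs: chr3R:14285158-14285358 in intron 1 of trx, chr3R:17717248-17717448 in intron 1 of osa and chr2L:222057-222257 before the internal TSS of kis, plus strand, with motif matches in capitals.
trx intron 1, GA run: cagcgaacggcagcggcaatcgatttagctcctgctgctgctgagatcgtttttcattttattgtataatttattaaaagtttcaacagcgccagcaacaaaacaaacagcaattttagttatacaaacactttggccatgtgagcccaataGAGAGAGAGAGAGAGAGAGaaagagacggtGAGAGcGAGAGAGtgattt
osa intron 1, GA run: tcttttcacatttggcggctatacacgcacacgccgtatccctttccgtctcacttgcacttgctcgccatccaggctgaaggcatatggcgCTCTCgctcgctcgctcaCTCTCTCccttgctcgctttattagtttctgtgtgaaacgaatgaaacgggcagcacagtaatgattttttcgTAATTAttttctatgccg
kis internal TSS, GA run: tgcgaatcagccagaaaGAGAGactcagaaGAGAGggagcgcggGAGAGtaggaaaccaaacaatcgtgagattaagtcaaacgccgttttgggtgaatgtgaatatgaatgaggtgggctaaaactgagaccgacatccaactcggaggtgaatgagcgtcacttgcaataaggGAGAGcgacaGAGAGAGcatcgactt

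TATCGATA was present at 3 of the 26 (11.5%), against 6.37% of IDR and 2.43% of pooled windows: at the promoters of osa and mor and at Rbf2. CGATA was present at 10 (38.5%), close to the 36.5% of all IDR windows and above the 27.6% of pooled ones. The whole window at the osa promoter held 8 matches, and the shorter stretch printed below holds 7. GGTCACAC was present at the trx promoter and at Rpp30, 2 of 26 (7.69%), against 4.41% of IDR and 1.89% of pooled windows. The promoter stretches outside the annotated transcripts are chr3R:17718351-17718485 for osa, chr3R:15972917-15973117 for mor and chr3R:14286904-14287072 for trx. They are printed on the plus strand, so that these genes run leftward from the left end, with motif matches in capitals.
osa promoter: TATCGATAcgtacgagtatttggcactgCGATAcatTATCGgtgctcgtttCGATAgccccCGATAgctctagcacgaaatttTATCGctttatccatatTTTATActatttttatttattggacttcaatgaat
mor promoter: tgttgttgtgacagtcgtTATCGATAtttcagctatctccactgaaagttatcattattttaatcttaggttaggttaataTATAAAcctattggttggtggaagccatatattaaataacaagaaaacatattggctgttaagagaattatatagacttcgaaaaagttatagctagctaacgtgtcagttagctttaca
trx promoter: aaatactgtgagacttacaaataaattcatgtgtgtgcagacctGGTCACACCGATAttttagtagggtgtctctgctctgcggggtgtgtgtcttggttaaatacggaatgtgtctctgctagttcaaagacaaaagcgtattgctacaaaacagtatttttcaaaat

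The E-box CACGTG, bound by repressors that recruit Groucho, was in 1 window, that in intron 1 of kis at 246945 (3.85%, against 3.09% of IDR and 2.71% of pooled windows). It was there in its longer form, which 1.67% of IDR and 1.5% of pooled windows hold. The Pho letters GCCATT were in 5 windows (19.2%, against 10.98% of IDR and 13.3% of pooled), and the homeodomain letters TAATTA in 6 (23.1%, against 11.9% and 13.1%). The TATA box letters were in 9 (34.6%, against 25.04% and 24.5%) and those for TCF in 6 (23.1%, against 18.9% and 19.3%). Those for Su(H) were in 3 (11.5%, against 10.7% and 11.7%), as were those for Zeste (11.5%, against 10.9% and 10.5%). Those for Runt were in 1 (3.85%, against 7.21% and 7.01%), as was the E-box CAGCTG (3.85%, against 12.6% and 9.71%), both at 14283942 in trx. The letters for Snail, Zelda and Brinker were in none of the 26 windows, against 6.66%, 3.81% and 4.01% of IDR and 6.63%, 4.17% and 3.43% of pooled windows. The windows of the 3 strongest of the 26, those at ash1, osa (17704417) and Trl (14759525), held none of the GA, E-box or DRE letters. The median GC content of the 26 windows was 37.8%, against 39.8% of IDR and 40.3% of pooled windows.

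Genes of the same machinery outside the 8 were counted from lists of known members. Of 9 other Brahma complex subunits, 6 (66.7%) had a promoter site in the IDR list, again within 1 kb of a TSS, with a median highest signal of 124 and the highest at Act5C, the actin subunit (267). For 4 of the 6 the summit's nearest protein-coding TSS was the gene's own; at Bap60 (200) it was that of CG12096. Of 13 COMPASS family genes and partners 6 (46.2%) had one, with a median of 118 and none above the 138 of Dpy-30L1. Of 20 other remodellers and trithorax group genes 14 (70%) did, with a median of 106 and the highest at fs(1)h (215), where the summit was nearest to mys. Of 18 Polycomb genes 11 (61.1%) did, with a median of 123 and the highest at ph-p (968). The strongest promoter summit was nearest to the gene's own TSS in 5 of the 6 COMPASS genes and 9 of the 14 other remodellers. That held for 8 of the 11 Polycomb genes and for all 6 of the genes here. The median over the 6 genes here was 148, and 125 over the 3612 protein-coding genes with such a summit. IDR summits in introns over 1 kb from the TSSs, found in 4 of the 8 genes and in 4.85% of all protein-coding genes, were found in 6 of the 20 other remodellers (highest in tna, 282, mod(mdg4), 263, and tara, 238), in 2 of the 18 Polycomb genes and in none of the other Brahma or COMPASS genes, and lengths were not matched between these lists.

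**Figure D4:**
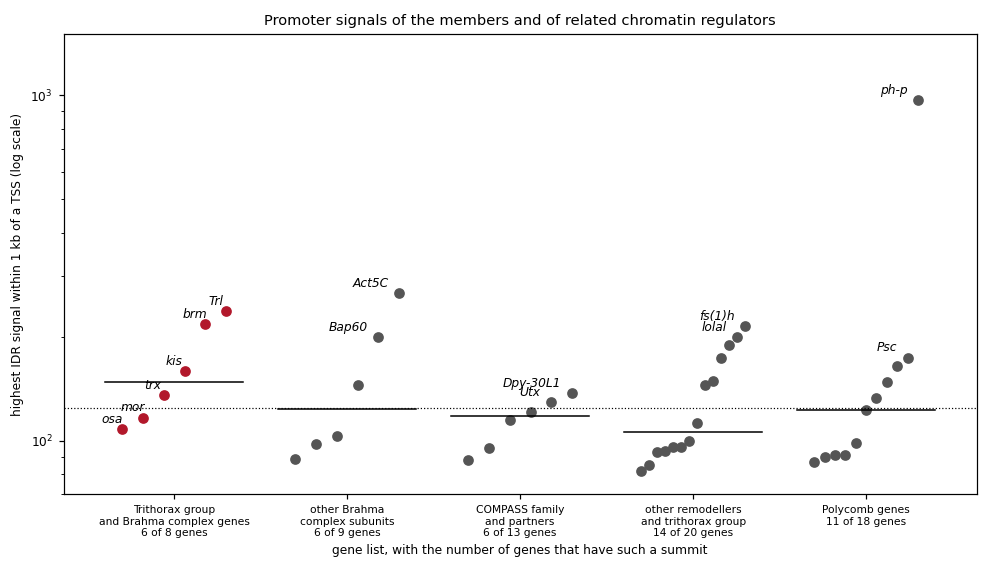
Highest pooled signal (log scale) among the IDR summits at a gene's promoter, within 1 kb of a TSS, 1 point for each gene that has one, for the 8 genes (red) and 4 lists of related genes (grey); bars mark each list's median and the dotted line the median of 125 over all protein-coding genes with such a summit. The 6 red points lie between 108 and 238, within the span of the other Brahma subunits and of the Polycomb genes. The highest COMPASS gene has 138 and the highest other remodeller 215. The point of ph-p (968) stands above every other point.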

How the data were processed

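ChIP-seq of GFP-tagged Groucho came from 2 biological replicates, numbered as in the labels; per the labels, chromatin was sonicated to fragments of 200 to 800 bp. Per the deposited manifest, the authors made lists of 30000 regions from each replicate and from the pooled replicates, each with a control alignment that was not analysed here, and the IDR list from them. What aligner, peak caller, IDR threshold and versions were used is not given in the sources used here. For each region, signal is the value the authors deposited, with no scale stated; no read counts are in the lists, so depth is unknown. The dm3 lists were not used.

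Coordinates are dm6, counted from 1. Gene models came from Ensembl release 115, with RefSeq transcripts as an alternative, and sequence from RefSeq Release 6 (dm6). Summits were assigned with Python 3.11.15, numpy 2.4.6 and scipy 1.17.1, tested on simulated data, and drawn with matplotlib 3.10.9. A summit counted as at a promoter within 1 kb of a TSS and as at a TSS, in the classes of place, within 500 bp. A replicate region matched when it overlapped by at least 1 bp. The share of a list with a property has a Wilson 95% interval, which covers counting error only.

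The genes, related lists and motifs were chosen with earlier results of these data known. Named were all 8 genes, each IDR summit within 5 kb, the gene of its nearest TSS, and the 3 genes most like the one with the highest promoter signal; other genes of the lists were named for the highest values in their list, after these were seen. Symbols were matched to current names: hcf as Hcf, calypso as caly, lid as Kdm5, bip2 as Taf3 and CG7154 as Brd7-9. With 1 group of 2 replicates no test was made and no p-value is given. Alternatives were distance limits, flanks, thresholds, annotation, overlap, scaling and leaving out a replicate.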

Additional observations from a re-analysis of the deposited data

How the results depend on the processing

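The count of 26 IDR summits fell to 14 and that of 96 pooled summits to 56 when no flank was allowed, so 12 and 40 of them lay outside the genes. The share of pooled summits near a TSS, 46.9% at 500 bp (against 34.5% of all pooled summits), was 58.3% at a limit of 1 kb. The other 25 alternatives of the summary values stayed within 1.5 times the count or within the interval or spread, and none reversed. Leaving out a replicate gave 5 to 6 genes with a promoter site, 25 to 29 summits among the highest 4492 and 85 to 107 in the whole list; without replicate 3 the gene lost was osa, whose promoter region ranked 5691. The highest site of Trl ranked 213 without replicate 1 and 1272 without replicate 3, against 397 pooled, and that of mor 1290 without replicate 1 and 3064 without replicate 3, against 2208. In replicate 1 the region at the mor promoter summit ranked 6297, and mor kept its site there through another region, at the summit 765 bp from its TSS, which is nearer to Hel89B. Within 5 kb of a TSS the highest signals of Trl and trx became those of their introns, 531 and 274. No paired analysis was possible because the series has 1 group. Depth is unknown and limits what an unlisted region means.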
